A study of Oryza sativa with 6 samples.

Results

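NAC domain transcription factor genes were described in leaves of rice plants that carry PIF4-GFP, by the peaks listed for this protein and by the rows of RNA values that bear the genes' names. The 54 NAC genes were those of 1177 genes in the deposited expression tables whose description holds NAC or NAM in capitals at the start of a word, or the words no apical meristem. They stood at 54 distinct loci on all 12 rice chromosomes, and 52 of them matched a RefSeq gene. A further name beyond the domain itself was given for 25 genes, and 29 were described by the domain alone.

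The 6 libraries came from leaves of Oryza sativa at 3 weeks of age, from plants kept in pots under light that fluctuated and under drought, so that both groups shared these conditions. The first group, PIF4-GFP (3 libraries, titled PIF4-OE), is the line that overexpresses PIF4 fused to green fluorescent protein, and the second, GFP mock (3 libraries), carries the label GFP alone. The promoter that drives either construct, the number of transgenic lines and the number of plants per library are not stated in the sources used here, and p-values measure only the spread between these libraries. The series text describes chromatin immunoprecipitation sequencing (ChIP-seq), a method that sequences the DNA bound by a protein, and gives the PIF4 line in this light and drought as its material, whereas the sample labels describe total RNA. Of the leaf markers searched for, which were the small subunit of Rubisco, chlorophyll a-b binding proteins, GLK1 and GLK2, the 1177 genes held only the 2 GLK genes, so the leaf label was not checked.

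PIF4 is a basic helix-loop-helix transcription factor that is bound and destabilised by phytochrome in the light and acts in growth and temperature responses, as studied mainly in Arabidopsis. NAC proteins are a large family of plant transcription factors, named after NAM of petunia and ATAF and CUC of Arabidopsis, with a conserved DNA-binding domain at the amino terminus and a variable regulatory region behind it. Members act in drought, salt and abscisic acid responses, in leaf senescence and in the formation of organ boundaries, and some are held at a membrane until a stress releases them.

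The peak list holds 29513 peaks, whose names all begin with PIF4-GFP1, and places each of them at 1 gene and in 1 class: promoter, exon, intron or transcription end. The rule that sets the class was not tested. At the 1177 genes, the centres of promoter peaks ran from -9678 to 1999 bp from the listed start. It gives no score and no replicate, and no mock list was used here, so that peak results are described with counting intervals (Wilson, 95%) and carry no test between the groups. Widths lay on a grid of 200 bp, with 1 exception in the list. The deposited distance runs from the listed transcription start to the peak's centre and is positive downstream. The rice build of the coordinates is not stated in the sources used here, and positions are printed as the files give them, counted from 1.

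Promoter peaks were listed at 37 of the 54 NAC genes (68.5%, interval 55.3 to 79.3), against a background of 71.8% of all 1177 genes (845 genes). A peak of any class was listed at 42 NAC genes (77.8%, interval 65.1 to 86.8), against 77.4% of all genes. Both shares lay near the background. Promoter peaks were listed at 76.4% of 72 WRKY genes, 67.6% of 71 MYB genes and 70.9% of 79 homeobox genes. The 28 NAC genes on the plus strand included 18 with a promoter peak, and the 26 on the minus strand included 19.

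**Figure D1:**
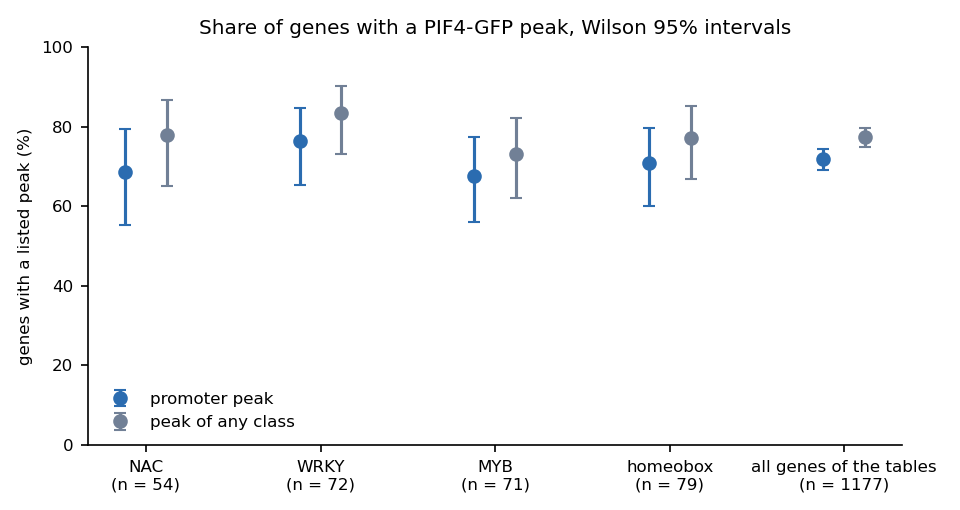
Percent of genes with a listed PIF4-GFP promoter peak (blue) or a peak of any class (grey), for NAC, WRKY, MYB and homeobox genes and for all genes of the tables, with Wilson 95% intervals as bars. The 71.8% of all genes lies within the interval of the NAC promoter share of 68.5%.

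The 42 genes with a peak carried 50 peaks. Promoter peaks made up 40 of these (80%), transcription ends 6 (12%), exons 3 (6%) and introns 1 (2%). Among the 1090 peaks of the other genes of the tables the shares were 75.3% promoter, 6.42% transcription end, 12.5% exon and 5.78% intron. A single peak was listed at 34 NAC genes and a pair at 8 (14.8% of the 54; 2 or more at 16.9% of the other genes), and 0 genes had 3 or more. By class, 29 genes had 1 promoter peak and no other, 3 had a pair of promoter peaks, 3 a promoter peak with one at the transcription end, 2 a promoter peak with one in an exon, and 5 had only a peak of another class. The remaining 12 had none.

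**Figure D2:**
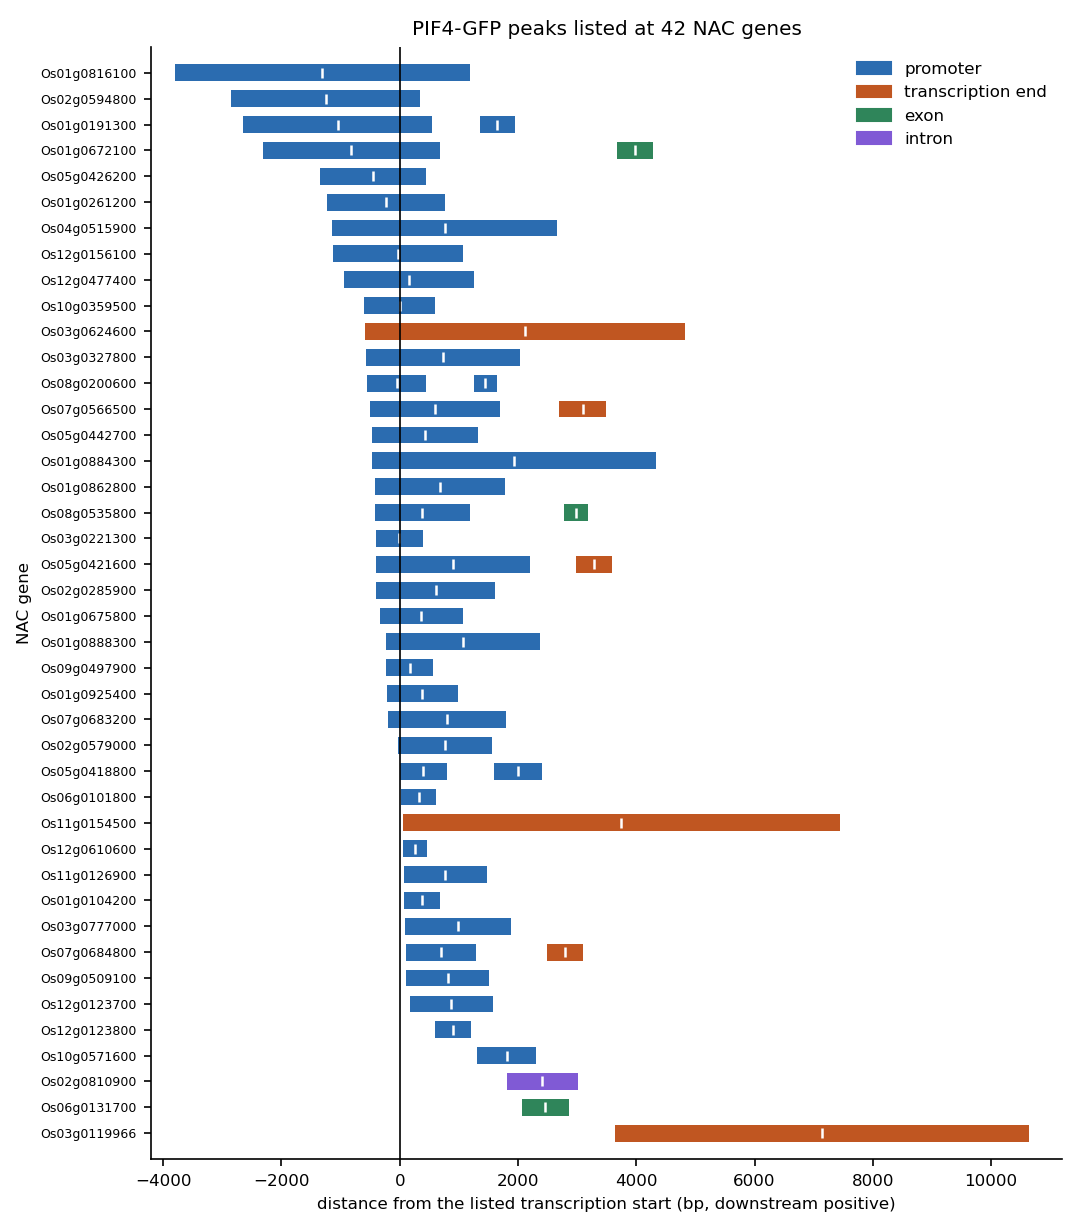
Each bar is 1 listed peak at 1 of 42 NAC genes, drawn from edge to edge in bp from the listed transcription start (vertical line, downstream positive) and coloured by class, with a white tick at its centre. Genes are ordered by the edge farthest upstream, and most promoter peaks reach from before the start into the gene body.

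Among the 5 genes named for stress responses, 4 had a promoter peak, beside 71.8% of all genes. OsNAC6, also called SNAC2 (Os01g0884300), which is induced by drought, salt and cold and raises tolerance when overproduced in rice, had a peak at chr1:38397200-38401999. That peak was 4800 bp wide, was centred 1934 bp downstream of the start and covered 100% of the gene's span. Its centre lay close to 1999 bp, the farthest downstream of any promoter peak at the 1177 genes. OsNAC4, also called ONAC068 (Os01g0816100), a factor known in rice for promoting hypersensitive cell death, had the widest promoter peak of the family, 5000 bp at chr1:34693200-34698199, with its centre at -1308 bp, upstream of the start. These peaks differ in placement: the first lies mostly over the gene and the second mostly before it.

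The gene described as similar to ANAC019 (Os03g0777000), an abscisic acid-responsive factor of Arabidopsis, had a peak of 1800 bp at chr3:32234400-32236199 that began 88 bp downstream of the start. The gene described as a NAC-domain protein of drought tolerance (Os11g0126900) had one of 1400 bp at chr11:1234000-1235399, which began 71 bp downstream. Both peaks lay in the gene body, beside the listed start and without holding it. ONAC045 (Os11g0127600), which raises drought and salt tolerance when overproduced in rice, had no listed peak, and the nearest one, in an intron of LOC_Os11g03360, ended 3115 bp away.

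The single gene named for senescence, NAP (Os03g0327800), whose relatives in Arabidopsis and rice promote leaf ageing and chlorophyll loss, had a promoter peak of 2600 bp at chr3:11974400-11976999. It held the start, was centred 727 bp downstream and covered 82.8% of the gene's span. The gene named OsNTL3 or OsNAC8 (Os01g0261200) encodes a factor tethered to a membrane and freed by heat in rice. It had a promoter peak of 2000 bp at chr1:8796600-8798599, centred 236 bp upstream of the listed start. The start in the expression tables lies 2472.5 bp from the one implied by the peak list for that gene, and the peak covered 0% of the span in the tables, so the peak's position depends on which gene model is taken.

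NAM and CUP-SHAPED COTYLEDON2 (CUC2) set organ boundaries and meristems in petunia and Arabidopsis. Of 12 genes named for them or for related proteins, some of which have other roles, 6 had a promoter peak, 8 a peak of any class and 4 none. Over all genes 71.8% had a promoter peak and 77.4% a peak of any class, and 12 genes are too few for a comparison. The 4 genes described as like NAM and CUC2 included genes with and without a peak. Os04g0515900 had a promoter peak of 3800 bp at chr4:25772200-25775999 that covered 93.5% of its span, and Os07g0684800 had one of 1200 bp at chr7:29041000-29042199 that began 98 bp downstream of the start. Os12g0610600 had one of 400 bp at chr12:25801000-25801399, among the narrowest of the family, and Os10g0477600 had none, the nearest listed peak lying 6455 bp from its span. The 4 genes thus ranged from a peak over nearly the whole gene to none.

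The gene described as similar to ANAC018 (Os01g0888300), which acts in seed coat development in Arabidopsis, had a promoter peak of 2600 bp at chr1:38611200-38613799 that covered 96.8% of its span. The genes described as similar to ANAC021 and ANAC022 are relatives of the Arabidopsis factor NAC1, which promotes lateral roots downstream of auxin. One of them, Os02g0810900, had only a peak in intron 2 of 2, 1200 bp wide at chr2:34674800-34675999, and the other, Os08g0200600, had a pair of promoter peaks. Of the remaining 5 genes in this group, Os03g0221300 had a promoter peak of 800 bp at chr3:6365200-6365999, centred 4 bp upstream of the listed start, which lay 1356.5 bp from the start in the tables. Os06g0131700 had only a peak in exon 3 of 3, 800 bp wide at chr6:1700000-1700799. Os06g0726300, Os08g0103900 and Os08g0157900 had none.

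The gene whose description holds the words resistance to rice dwarf virus and regulator of jasmonate signalling (Os03g0119966) had only a peak of the transcription end class. It was 7000 bp wide, at chr3:1092800-1099799, and covered 15.4% of the gene's span, so that most of it lay beyond the gene. Among the 5 other named genes, 4 had a promoter peak, beside 71.8% of all genes. They were ONAC010 (Os07g0566500) with 2200 bp, ONAC300 or ONAC077 (Os12g0123800) with 600 bp, the gene similar to NAC-domain protein 1-1 (Os06g0101800) with 600 bp, and the gene similar to ANAC090 (Os12g0156100) with 2200 bp centred 23 bp upstream of its start. The gene similar to NAC-domain protein 14 (Os03g0133000) had none. Of the 29 genes known only by the domain, 21 had a promoter peak (72.4%; 71.8% of all genes), 23 a peak of any class and 6 none.

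Promoter peaks at NAC genes had a median width of 1600 bp (quartiles 950 and 2200), the same median as the 821 promoter peaks at the other genes of the tables (1600, quartiles 1000 and 2400); the whole list had 1400 bp. The narrowest were 400 bp, at Os08g0200600 and Os12g0610600, followed by 4 of 600 bp. The widest were those of OsNAC4 and OsNAC6, at 5000 and 4800 bp, followed by 3800 bp at Os04g0515900. A width of 4800 bp or more was found for 4.01% of the 23278 promoter peaks in the whole list. Width in such a list depends on the caller and on sequencing depth, neither of which is stated in the sources used here.

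The median distance of NAC promoter peaks was 511.5 bp downstream of the start (quartiles 117 and 828.75), against 334 bp (65 and 720) for the other genes of the tables. The medians of the other families were 663 bp for WRKY, 366 bp for MYB and 410 bp for homeobox genes, and the whole list gave 198 bp. Centres lay 500 to under 1000 bp downstream for 14 of the 40 NAC peaks (35%; 22.9% at the other genes) and within 500 bp of the start for 16 (40%; 54.8%). The difference carries no test, since the peaks come from 1 list and neighbouring genes are not replicates.

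The peaks centred farthest upstream were those of OsNAC4, of Os02g0594800 (3200 bp at chr2:23066200-23069399, centre at -1250) and of Os01g0191300 (3200 bp at chr1:4885400-4888599, centre at -1050). Those farthest downstream were at Os05g0418800 (centre at 1999), OsNAC6 and Os10g0571600 (1000 bp at chr10:22670600-22671599, centre at 1807). By the start in the tables, the peak of Os10g0571600 was centred 471.5 bp downstream and held the start, so its place depends on the gene model. The 10 peaks centred upstream all held the listed start. By the gene models of the tables, those of Os01g0261200 and Os03g0221300 covered 0% of the span and lay wholly before the gene. Of the 30 centred downstream, 17 held it.

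Counted over peaks, 27 of the 40 NAC promoter peaks (67.5%, interval 52 to 79.9) held the listed start, against 84.8% (82.2 to 87.1) at the other genes of the tables. By peaks, the share was 76.8% (64.2 to 85.9) at WRKY genes and 89.6% (77.8 to 95.5) at MYB genes. At homeobox genes it was 85.96% (74.7 to 92.7). Counted over genes, 27 of 37 (73%, interval 57.0 to 84.6) had a promoter peak that held the start, against 86.1% (83.6 to 88.4) of 808 other genes. The remaining 10 genes had promoter peaks wholly downstream of the listed start. Between NAC and the other genes of the tables, the intervals overlap by genes and do not overlap by peaks. By peaks, the NAC interval overlaps those of the WRKY, MYB and homeobox genes, so a low share particular to NAC genes was not shown. Those intervals cover counting error only and are not a test, and the peaks of 1 gene share its start. The share of the gene's span that a promoter peak covered had a median of 66.8% at NAC genes and 33.3% at the other genes. It was 82.9% at WRKY, 51.6% at MYB and 66.6% at homeobox genes. NAC genes spanned a median of 2116.5 bp and the other genes 2542 bp, and the part of gene length in this difference was not tested.

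**Figure D3:**
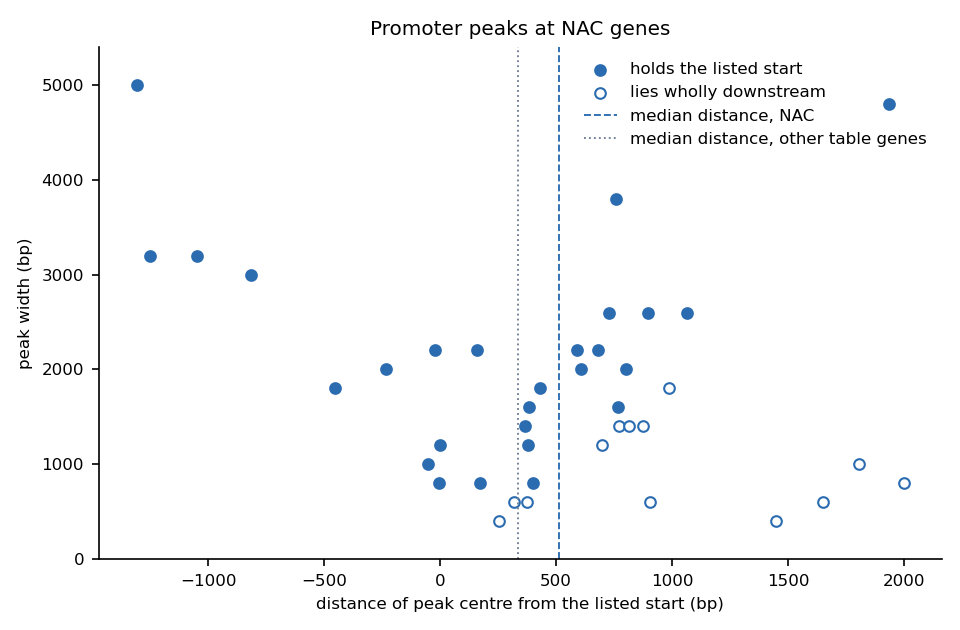
Width (bp) of the 40 promoter peaks at NAC genes against the distance of their centre from the listed start (bp, downstream positive). Filled points hold the start, open points lie wholly downstream, and the lines mark the median distance of NAC peaks (511.5 bp) and of the other genes' peaks (334 bp).

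By the start given in the expression tables, 28 of 54 NAC genes (51.9%, interval 38.9 to 64.6) had their start in one of their own peaks, against 61.4% of all genes. With peaks listed at any gene, the count was 32 (59.3%, interval 46.0 to 71.3; all genes 66.9%), so 4 NAC starts lay only in a peak listed at a neighbour. All 50 pairs of a peak and a NAC gene shared chromosome and strand. The starts in the list and in the tables differed by over 500 bp in 5 pairs, at Os05g0421600 (both of its peaks), Os01g0261200, Os03g0221300 and Os10g0571600.

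The peaks of the 8 genes with a pair were separated by gaps of 800 to 3000 bp. Pairs of promoter peaks were found at Os01g0191300, with the wide upstream peak and one of 600 bp at chr1:4884000-4884599, at Os05g0418800, with 800 bp each at chr5:20516600-20517399 and chr5:20518200-20518999, and at Os08g0200600, with 400 bp at chr8:5849000-5849399 and 1000 bp at chr8:5850200-5851199. In each of these 3 genes the peak nearer the listed start held it and the other lay within the gene. At Os05g0418800 the upstream edge of the nearer peak lay at -1 bp, and by the start in the tables neither peak held the start. A promoter peak with one at the transcription end was found at ONAC010 (chr7:22756000-22758199 and chr7:22754200-22754999), at Os07g0684800 and at Os05g0421600. A promoter peak with one in exon 3 of 3 was found at Os01g0672100 and Os08g0535800. In these 5 genes the second peak was 400 to 800 bp wide and narrower than the promoter peak.

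The 5 genes with peaks of other classes alone were Os03g0119966, Os02g0810900, Os06g0131700, Os03g0624600 and Os11g0154500. For the last 2, the class does not describe where the peak lies: that of Os03g0624600, 5400 bp at chr3:23734000-23739399, was classed as transcription end but held the start and 100% of the span. That of Os11g0154500, 7400 bp at chr11:2550600-2557999, had the same class, began 48 bp downstream of the listed start and also covered 100% of the span in the tables. The centres of both peaks lay past the gene's end in the tables, and whether this set their class was not tested.

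A listed peak was missing at 12 NAC genes, which had spans of 919 to 4320 bp. A peak listed at a neighbouring gene overlapped the span of 5 of them. Peaks listed at LOC_Os01g71780 (9200 bp, transcription end), LOC_Os03g04060 (4600 bp), LOC_Os10g27350 (4200 bp) and LOC_Os01g47660 (2600 bp) held the starts of Os01g0946200, Os03g0133000, Os10g0413700 and Os01g0667000, respectively. The peak at LOC_Os08g06130 overlapped Os08g0157900 without reaching its start. These genes count as having no peak here because peaks were joined by locus number and the overlapping ones are listed at a neighbour. Counting any overlap with the span gave 45 of 54 genes (83.3%), against 79.2% of all genes counted the same way. The gap from the span to the nearest peak was over 2000 bp for 6 genes and reached 13306 bp at Os06g0560300 and 39962 bp at Os08g0115800.

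By chromosome, a promoter peak was listed at 10 of 12 NAC genes on chromosome 1, at all 5 on chromosome 12, at all 4 on chromosome 5 and at all 3 on chromosome 7. It was listed at 2 of 5 on chromosome 8, 1 of 4 on chromosome 6 and 1 of 3 on chromosome 11. These counts are too small for a comparison. Os11g0126900 and Os12g0123700, near the duplicated ends of chromosomes 11 and 12, both had a promoter peak of 1400 bp, centred 771 and 873 bp downstream. In the same regions, Os11g0127600 had no listed peak and Os12g0123800 had a promoter peak of 600 bp. How reads from copies alike in sequence were assigned is not stated in the sources used here.

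The search words did not take in 8 further genes, chosen after their values were seen, that the descriptions or RefSeq synonyms name as NAC or Nam. Of these, 5 had a promoter peak and 6 a peak of any class, beside 71.8% and 77.4% of all genes. OsNAC5 (Os11g0184900), a stress-induced factor of rice, had a peak of 4400 bp at chr11:4299600-4303999, and the gene similar to OsNAC6 (Os03g0815100) had one of 4400 bp at chr3:34163000-34167399. OsNAC3 (Os07g0225300) had 1600 bp at chr7:6967400-6968999 and OsNAC2 (Os04g0460600) 1400 bp at chr4:22995000-22996399. The gene similar to ANAC030 (Os04g0691300) had 600 bp at chr4:35358800-35359399. The gene similar to ANAC075 (Os05g0194500) had only a peak in exon 3 of 5, and the genes similar to OsNAC7 (Os06g0104200) and to Nam-like protein 16 (Os08g0511200) had none. With these genes included, promoter peaks were listed at 42 of 62 genes (67.7%).

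The RNA values are FPKM, fragments scaled to transcript length and library size, in 1 table per library with the same 1177 rows. Whole reads, library totals (14933740 to 17919095 reads) and 1 length per row could be recovered from them, with totals searched only from 10000000 to 25000000 reads. The values fix only the product of a row's length and the library total, and 916 of 917 recovered lengths were multiples of 3. Lengths smaller by a factor of 3, with larger totals, would fit the same reads for those rows. The scale of the lengths therefore rests on the range searched. On this scale the lengths did not follow the genes that name the rows. Of 41 NAC rows with a recovered length, 11 (26.8%) had a length greater than the whole span of the named gene, against 20.8% of all 917 such rows. Both shares depend on that scale. The row Os12g0477400, for instance, had a length of 3723 nt against a span of 1286 bp. The lengths did not settle which transcript a row measures. A gene name on a row is treated as a label here, not an identified transcript, and peaks and RNA values were not compared gene by gene. The row labelled PIF4 (Os09g0510500) gave 7.46, 6.86 and 7.85 FPKM in PIF4-GFP and 8.02, 8.0 and 8.0 in GFP mock, so the overexpression named in the labels was not seen on that row, whose name is no more certain than the others. With limma on log2(FPKM + 1) it differed by -0.10 (adjusted p = 0.895).

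Between PIF4-GFP and GFP mock, 0 of the 37 NAC rows that could be tested passed an adjusted p of 0.05 in limma, against a background of 0% of 847 rows. At an unadjusted p under 0.05 in limma there was 1 of the 37 NAC rows, beside 33 of all 847 rows (3.9%). By adjusted p, limma on recovered reads also called 0 NAC rows. Rows were tested if they had at least 1 FPKM in 3 or more libraries. Of the other 17 NAC rows, 12 were listed at 0 in all 6 libraries and 5 stayed at or below 1.15 FPKM. The difference was below 0 in 32 of 37 NAC rows, with a median of -0.05 on the log2(FPKM + 1) scale, beside 673 of 847 rows and a median of -0.06 overall. The split among NAC rows was close to that of all tested rows, of which 174 were higher. Centring each library on its median value moves every row by the same amount (the shift between the groups was -0.08) and by construction brings all rows near balance. On that scale, 14 NAC rows and 362 of all rows were below 0. In whole leaves, fewer cells of a type and less RNA per cell cannot be told apart.

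**Figure D4:**
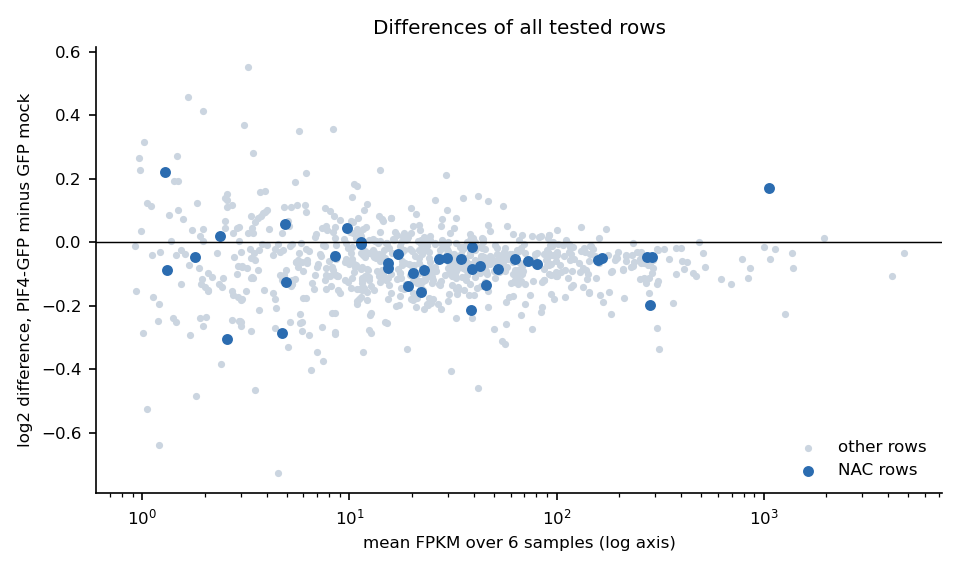
Log2 difference, PIF4-GFP minus GFP mock on the log2(FPKM + 1) scale, against mean FPKM over the 6 libraries (log axis) for all 847 tested rows, with the 37 NAC rows in blue. NAC rows lie among the others, and none passed the limma test.

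Values of the 2 groups did not overlap in 3 NAC rows that were lower in PIF4-GFP, against 7.91% of all rows, and in 1 that was higher, against 1.18%. The row Os06g0131700 gave 3.89, 4.41 and 4.25 FPKM in PIF4-GFP and 5.15, 5.83 and 4.97 in GFP mock. All PIF4-GFP values were below all mock values, and the log2 difference was -0.28 with an SE of 0.12 (adjusted p = 0.895 by limma). An exact permutation test gave p = 0.1, which 3 against 3 cannot go below. The rows Os06g0101800 and Os12g0477400 also did not overlap, with differences of -0.16 and -0.08. The row Os01g0888300 gave 1.45, 1.51 and 1.40 FPKM in PIF4-GFP and 1.10, 1.16 and 1.05 in GFP mock. All its PIF4-GFP values were higher, by 0.22 with an SE of 0.15 (adjusted p = 0.895 by limma; p = 0.1 by exact permutation), at a level close to the lowest that was tested. At this level the pseudocount sets much of the value, which was 0.37 with a pseudocount of 0.1 and 0.39 by limma on recovered reads.

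The NAC row with the highest level was that labelled OsNAC6 (Os01g0884300), with 1172, 1114 and 1074 FPKM in PIF4-GFP and 867, 1028 and 1100 in GFP mock. The groups overlapped, and the difference of 0.17 (SE 0.10, limma adjusted p = 0.895) did not pass. Without GFP mock replicate 1, which had the lowest value on this row, it was 0.07. Its recovered length, on the scale of the totals searched, was 306 nt against a gene span of 2486 bp. Next in level were the rows Os10g0413700, with 287, 229 and 335 FPKM in PIF4-GFP against 330, 256 and 288, and ONAC010 (Os07g0566500), with 264, 234 and 296 against 312, 276 and 319. The row Os06g0560300 gave 264, 265 and 282 against 280, 273 and 283. Each of these overlapped between the groups, with differences of -0.05 for Os10g0413700, -0.20 for Os07g0566500 and -0.05 for Os06g0560300. Without PIF4-GFP replicate 2 that of Os07g0566500 was -0.11. That of Os06g0560300 was -0.03 without PIF4-GFP replicate 1 and -0.08 without PIF4-GFP replicate 3. That of Os10g0413700 changed sign, to 0.10 without PIF4-GFP replicate 2 and 0.05 without GFP mock replicate 1, and was -0.17 without PIF4-GFP replicate 3 and -0.14 without GFP mock replicate 2.

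The row with the lowest difference, Os01g0191300, gave 2.71, 1.02 and 3.00 FPKM in PIF4-GFP and 2.63, 3.86 and 2.21 in GFP mock. Its difference of -0.31 (SE 0.24, limma adjusted p = 0.895) rested on PIF4-GFP replicate 2: without that library it was 0.0035. The row of OsNTL3 (Os01g0261200) gave 33.0, 32.5 and 41.9 FPKM against 39.1, 39.2 and 46.5, which overlapped, with a difference of -0.21 (SE 0.11, limma adjusted p = 0.895). It was -0.13 without GFP mock replicate 3 and -0.33 without PIF4-GFP replicate 3. Among the higher rows, Os05g0418800 and Os02g0555300 differed by 0.06 and 0.04, and both changed sign when single libraries were left out. Over the 37 rows the median SE was 0.10, and mean levels ran from 1.28 to 1059 FPKM with a median of 22.8, close to the 23.2 of all tested rows.

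**Figure D5:**
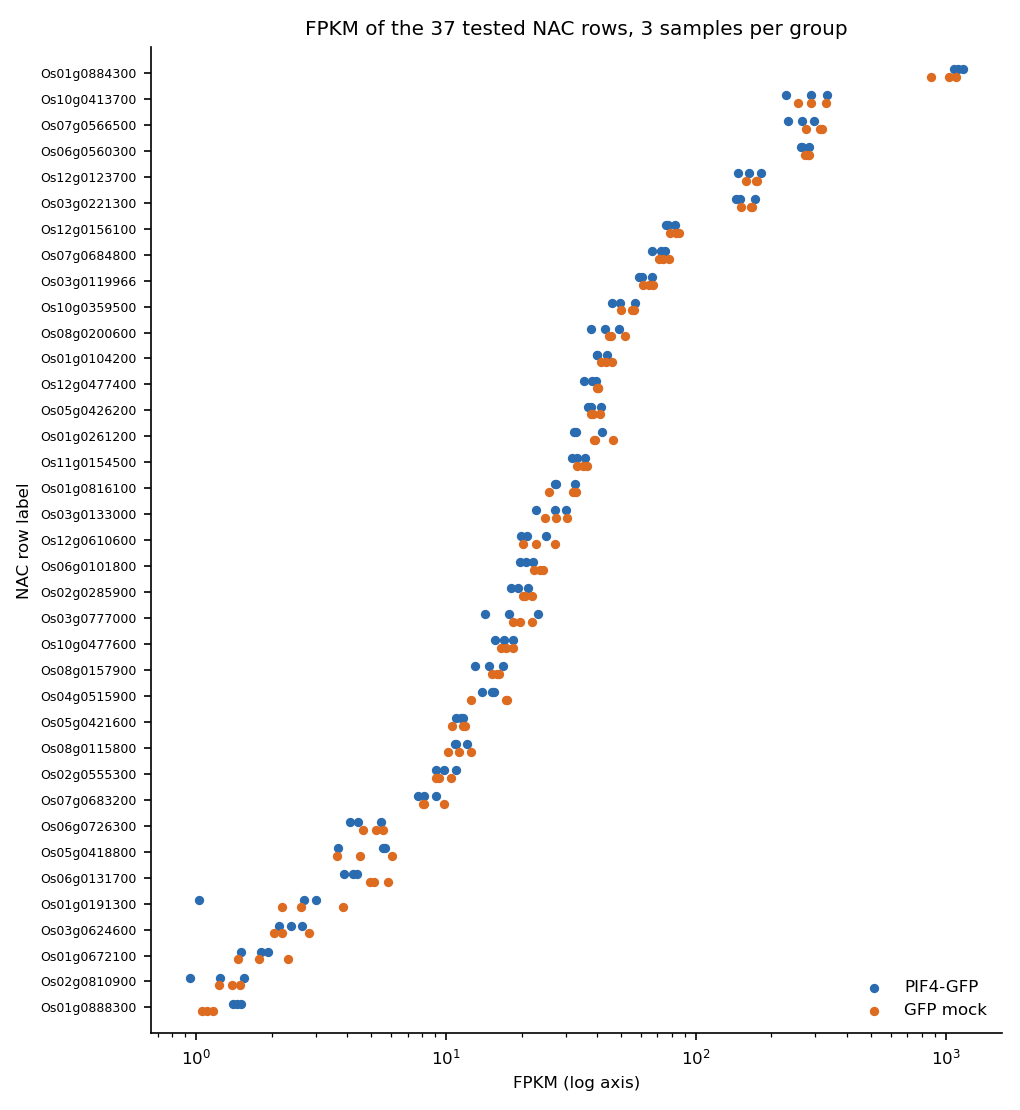
FPKM (log axis) of the 37 tested NAC rows in each library, PIF4-GFP in blue and GFP mock in orange, with 3 points per group and rows ordered by mean level. The points of both groups overlap in all but 4 rows, and mean levels run from 1.28 FPKM to the row labelled Os01g0884300 at 1059 FPKM on average.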

How the data were processed

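The authors deposited 1 peak list, which gives the locus number, the borders, the class and the distance of each peak from a transcription start, and 6 tables with 1 FPKM value per gene and library; the unit was taken from the values and the table headers. Bowtie 0.12.2, HISAT2 2.0, StringTie 1.3.0 and the build mm8, a mouse assembly, are named in the submitters' processing notes without role or order. For the peaks, no caller, threshold, rice build, pooling or depth is stated in the sources used here.

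Peaks were joined to NAC genes by locus number, with Python 3.11.15, numpy 2.4.6, scipy 1.17.1 and pandas 2.3.3, and plotted with matplotlib 3.10.9. Gene names come from the tables and from RefSeq (assembly ASM3414082v1), none of whose coordinates were used. The groups were compared by limma 3.58.1 in R 4.3.3, two-sided and with a trend of variance on mean, for log2(FPKM + 1) of rows that reached 1 FPKM in 3 libraries or more, with Benjamini-Hochberg adjustment over all rows, a threshold of 0.05 and two-sided exact permutation tests for single rows. Whole reads were recovered with a tolerance of 0.0001 of a read and library totals from 10000000 to 25000000 reads, and the limma step was tested on simulated data. Wilson 95% intervals cover counting error only.

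Members and lists were chosen with earlier results of these data known. Named were the genes with a name beyond the domain, the 4 widest and 4 narrowest promoter peaks, the 3 farthest upstream and downstream, genes with 2 peaks or only peaks of other classes, and the 4 highest and 4 lowest row differences and 4 highest levels; rows whose groups do not overlap, genes with no peak and the 8 further genes were added after their values were seen. Lists of chlorophyll breakdown, abscisic acid synthesis, drought protection, secondary wall and SNAC1 target genes held 0 of the 1177 genes and were not analysed here. Sequences were not analysed here.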

Additional observations from a re-analysis of the deposited data

How the results depend on the processing

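The promoter share was 61.1% (33 of 54 genes) for peaks of at least 800 bp, a count that was not made for all genes. It was 73.3% (11 of 15) for genes with NAC at a word start and 67.7% with the 8 further genes (added after the data were seen). The share with any peak was 83.3% by overlap with the span (79.2% of all genes). The median width was 1600 to 2000 bp and the median distance 399 to 727 bp under the alternatives tried. The peak results have no replicate, so their error beyond counting is unknown.

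Under all alternatives tried 0 NAC rows passed, also without any 1 library (0 to 0). Deviations from the group mean correlated between the groups at 0.111, 0.156 and -0.0880 for libraries of the same replicate number. For libraries of different number they correlated at -0.271 to 0.199, so whether the numbers pair the samples was not settled. With the replicate block 0 of 37 NAC rows passed, and the smallest adjusted p in limma was 0.327. In that fit 3 NAC rows had an unadjusted p under 0.05, beside 89 of all 847 rows. The adjusted threshold was passed by 1 of the 847 rows. Without PIF4-GFP replicate 3 the smallest adjusted p of a NAC row in limma was 0.194, and without PIF4-GFP replicate 2 2 of all rows passed. Of 110 differences of 10 named rows, 9 changed sign. For 2 of these, Os10g0413700 (0.032) and Os06g0560300 (0.033), the setting was centred libraries, which moves every row alike, so these changes of sign follow from the scaling and are not specific to the rows. Without PIF4-GFP replicate 2, Os01g0191300 had 0.0035 and Os10g0413700 0.097, and without mock replicate 1 Os10g0413700 had 0.045. Os02g0555300 had -0.021 without PIF4-GFP replicate 3. Os05g0418800 had -0.018, -0.031 and -0.082 without PIF4-GFP replicate 1, PIF4-GFP replicate 3 and mock replicate 2. Without 1 library at a time, Os01g0191300 ran from -0.49 to 0.0035, Os02g0555300 from -0.021 to 0.10, Os05g0418800 from -0.082 to 0.23, Os10g0413700 from -0.17 to 0.097, Os01g0884300 from 0.07 to 0.25, Os07g0566500 from -0.28 to -0.11, Os01g0261200 from -0.33 to -0.13 and Os06g0560300 from -0.08 to -0.03. For these changes the cause was not tested. The low rows Os01g0888300 and Os01g0191300 had 0.37 and -0.45 with a pseudocount of 0.1, and 0.39 and -0.47 by limma on recovered reads.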
